A study of Mus musculus with 32 samples.

Results

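Interferon regulatory factors (IRFs) are DNA-binding proteins that switch interferon-responsive genes on or off. The 8 family members described here, Irf1, Irf2, Irf3, Irf4, Irf5, Irf7, Irf8 and Irf9, were found by gene symbol, 1 row each, among the 54429 symbols of the deposited count table. Of these, 7 passed the filter on low counts that left 15254 genes to be tested, and Irf4 did not. The RNA-seq libraries were made from Veravec cells, a cultured line of mouse lung endothelial cells (ECs), and the study set out to learn how loss of the DNA methyltransferase Dnmt1 alters what these cells do with inflammatory cytokines. Every culture received siRNA in 2 rounds of transfection, either targeting Dnmt1 (si-dnmt) or control (si-control). The study's methods list 2 sequences against Dnmt1 and do not say whether they were pooled. Cultures were then left without cytokine or given TNF (TNFα, 10 ng/mL), IFN (IFNγ, 1000 U/mL) or TNF + IFN for 16 h. The 2 siRNA conditions and 4 cytokine states make 8 groups of 4 libraries, 32 in all. The labels call these biological replicates and number them from 1 to 4. All cells carried transfection reagent and siRNA, so none of the groups shows untouched endothelium, and the sources used here do not say whether the line is a single clone.

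The IRF family shares a DNA-binding domain that reads GAAA-type repeats, the core of the interferon-stimulated response element (ISRE). Irf1 is an activator whose gene is switched on by IFNγ signalling through a gamma-activated site (GAS), Irf2 binds the same sites and is best known as its antagonist, Irf9 is the DNA-binding subunit of the ISGF3 complex, and Irf3 and Irf7 wait in the cytoplasm until the kinases Tbk1 and Ikbke phosphorylate them downstream of nucleic acid sensors. Irf4, Irf5 and Irf8 are known mainly from lymphoid and myeloid cells, while in endothelium Irf1 is best known for its part in cytokine-driven expression of adhesion molecules such as Vcam1.

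The promoters of 4 members are shown, picked for how these members responded, and the part of the promoters in the responses was not tested. Irf1, Irf2 and Irf8 are the members that rose with IFN under both siRNAs, and Irf5 is the one that was higher with si-dnmt in all 4 cytokine states. The sequences are the 250 bases before the first listed RefSeq start of each gene on GRCm38.p6, plus strand, at chr11:53769764-53770013 for Irf1, chr8:46739495-46739744 for Irf2, chr6:29526375-29526624 for Irf5 and chr8:120736108-120736357 for Irf8. Capitals mark matches, on either strand, to the GAS letters TTCNNNGAA, to the ISRE letters GAAANNGAAA or to the NF-kB consensus.
Irf1: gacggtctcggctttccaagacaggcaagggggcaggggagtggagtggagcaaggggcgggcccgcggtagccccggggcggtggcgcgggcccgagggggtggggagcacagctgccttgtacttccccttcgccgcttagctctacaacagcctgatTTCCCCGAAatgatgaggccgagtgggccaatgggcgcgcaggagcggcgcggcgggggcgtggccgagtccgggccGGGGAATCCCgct
Irf2: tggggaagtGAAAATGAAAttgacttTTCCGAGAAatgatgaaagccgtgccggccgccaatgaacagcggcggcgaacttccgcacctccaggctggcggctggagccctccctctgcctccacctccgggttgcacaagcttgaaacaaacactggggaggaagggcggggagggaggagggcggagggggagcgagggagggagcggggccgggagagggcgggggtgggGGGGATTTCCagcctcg
Irf8: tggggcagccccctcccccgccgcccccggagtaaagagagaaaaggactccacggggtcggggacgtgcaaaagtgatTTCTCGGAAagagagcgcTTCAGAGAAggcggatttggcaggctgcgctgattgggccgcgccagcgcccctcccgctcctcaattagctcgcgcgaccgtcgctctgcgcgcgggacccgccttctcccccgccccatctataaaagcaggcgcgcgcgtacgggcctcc
Irf5: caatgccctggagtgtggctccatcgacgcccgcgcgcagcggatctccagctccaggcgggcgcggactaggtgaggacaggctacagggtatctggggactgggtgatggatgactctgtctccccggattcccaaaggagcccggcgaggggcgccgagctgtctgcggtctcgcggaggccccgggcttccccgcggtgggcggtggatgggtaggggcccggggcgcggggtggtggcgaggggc
In the Irf1 promoter the GAS letters TTCCCCGAA begin at position -90 and the NF-kB letters GGGGAATCCC at -13, counted back from the start. The Irf2 promoter holds the ISRE letters GAAAATGAAA at -241, the GAS letters TTCCGAGAA at -224 and the NF-kB letters GGGGATTTCC at -17. The Irf8 promoter holds the GAS letters at both -171 and -153, no matches overlap each other, and the Irf5 promoter holds none of the 3 motifs. Each search covered the RefSeq window of 300 bases, which adds 50 bases past the start, and no match was found in the windows of Irf3, Irf4, Irf7 and Irf9 or at the further listed starts of Irf1, Irf8 and Irf9. Of 32851 such windows over all genes, 8.30% held the GAS letters, 3.44% the ISRE letters and 8.46% the NF-kB letters, and a match of letters is not evidence of binding. Since Dnmt1 copies methylation at CpG sites, the CpGs were counted too. The windows of Irf8, Irf5 and Irf1 held 38, 35 and 32 CpGs, those of Irf2 and Irf3 held 19 and 18, and those of Irf4, Irf9 and Irf7 held 11, 9 and 7, against a median of 7 over all windows. The windows at the further listed starts of Irf1, Irf8 and Irf9 held 43, 8 and 1.

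Libraries held 17362546 to 33500030 counts. The siRNA target Dnmt1 was 13.5-fold lower with si-dnmt without cytokine, 14.6-fold lower under TNF, 15.5-fold lower under IFN and 16.9-fold lower under TNF + IFN (adjusted p at most 4.77e-08). Within groups, replicates 1 and 2 resembled each other, as did replicates 3 and 4, and the labels do not say what separates these 2 replicate sets. Values within each set are therefore printed beside some of the results that differ between them, though not beside all. Of 12 endothelial markers all were detected in every group, with summed levels of 6734 to 10098 CPM (counts per 1000000 counts of the library, after scaling) in si-control, 6370.3 to 9289 in si-dnmt, and with both cytokines 4284 to 5989.9 and 3808 to 5649.9. In si-control 5 of the 12 were called lower with TNF, 1 with IFN and 9 with both, and 0 higher. Of all genes 14.6%, 5.92% and 21.6% were called lower there. With both cytokines the log2 fold change was -4.96 for Vwf and -3.17 for Cldn5. Of 16 leukocyte markers, 13 never exceeded 10 counts, among them the pan-leukocyte gene Ptprc at 0 to 3 counts, the myeloid genes Itgam and Adgre1 at 0 to 2 counts and the T-cell gene Cd3e at 0 in all libraries. The other 3 were Csf1r at 5 to 34 counts, Lyz2 at 21 to 2500 and Cd68 at 1013 to 4614. Of 5 epithelial markers only Krt18 exceeded 10 counts, and their summed level lay between 3.65 and 22.6 CPM. Of 6 fibroblast markers 2 never exceeded 10 counts (Col1a2 and Lum). The sources used here do not say whether counting used strand. In the GENCODE M21 annotation Irf1, Irf2, Irf3, Irf5 and Irf7 overlap genes on the opposite strand (Bcl2l12 for Irf3, Tnpo3 for Irf5, Phrf1 for Irf7), and Irf8 and Irf9 overlap Gm20388 and Rnf31 on the same strand, so reads of overlapping exons could have been counted for either gene or for neither.

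Per kilobase of exons, Irf7 was the most abundant family transcript in cells without IFN and Irf1 in cells with IFN. In si-control without cytokine, Irf7 stood at 27.7 ± 6.28 CPM per kilobase (mean ± SD, n = 4), Irf9 at 16.3 ± 0.580, Irf1 at 9.00 ± 1.70, Irf3 at 7.07 ± 0.945, Irf2 at 5.43 ± 0.382 and Irf8 at 4.85 ± 1.36, while Irf5 was at 0.163 ± 0.0512. Under TNF + IFN in si-control, Irf1 reached 271 ± 24.5 and Irf7 136 ± 41.5 CPM per kilobase, followed by Irf8 at 46.0 ± 14.8. Irf1 thereby went from 12.8% of the summed per-length level of the 8 genes to 53.7%, and Irf7 from 39.3% to 26.9%. In si-dnmt the same shares were 10.3% and 45.9% for Irf1, and 60.6% and 35.6% for Irf7. Irf5 made up 0.232% in si-control and 3.93% in si-dnmt + TNF + IFN, where it stood beside Irf9 at 19.4 ± 0.631 and 19.0 ± 2.21 CPM per kilobase. Levels are of RNA in the whole culture, in which fewer cells of a kind and less RNA per cell cannot be told apart.

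**Figure D1:**
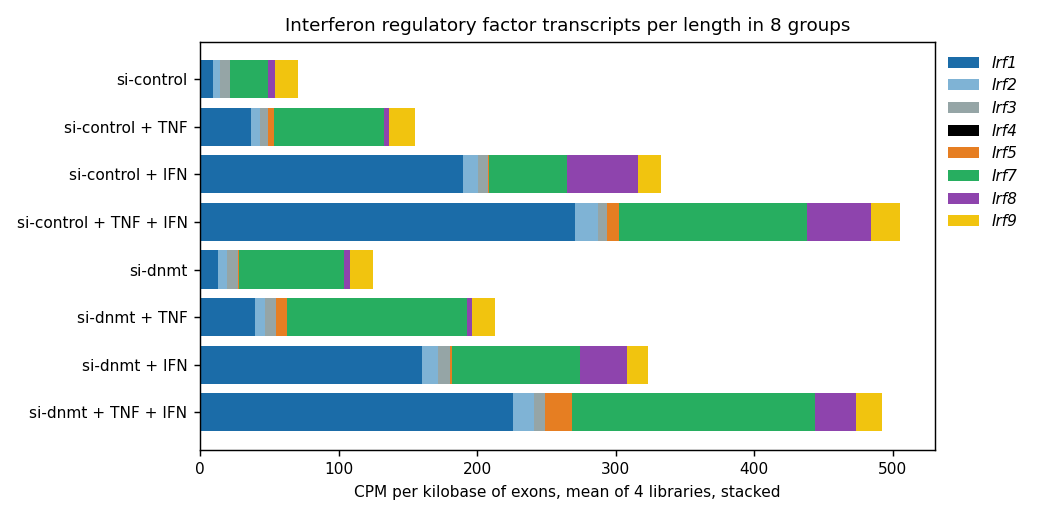
Stacked bars give the mean CPM per kilobase of exons of each interferon regulatory factor in the 8 groups (n = 4 libraries each), from 0. Irf1 forms the longest stretch in the 4 groups with IFN and Irf7 in the 4 groups without it; Irf4 is too low to be seen.

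Irf1, the IFN-induced activator, rose with each cytokine under each siRNA, most with both together. Values per library are given in the order of replicates 1 to 4. Without cytokine it was at 40.7, 42.0, 32.6 and 27.8 CPM in si-control and at 62.0, 55.9, 41.6 and 44.2 CPM in si-dnmt. Under TNF it was at 145, 163, 128 and 143 CPM in si-control and at 171, 167, 149 and 142 CPM in si-dnmt. Every TNF library lay above every library without cytokine. With IFN it was at 839, 918, 595 and 662 CPM in si-control and at 688, 712, 557 and 594 CPM in si-dnmt, and with both cytokines at 1219, 1020.1, 1061 and 1009 CPM in si-control and at 950.3, 993, 829 and 824 CPM in si-dnmt. The 16 libraries with IFN did not overlap the 16 without it. In si-control, Irf1 rose 4.04-fold with TNF (log2 fold change 2.01 ± 0.15, adjusted p = 3.73e-11; ± is the SE for all log2 values), 21.1-fold with IFN (log2 fold change 4.40 ± 0.16, adjusted p = 5.83e-18) and 30.1-fold with both (log2 fold change 4.91 ± 0.17, adjusted p = 6.12e-19). In si-dnmt the rises were 3.09-fold (log2 fold change 1.63 ± 0.15, adjusted p = 2.84e-09), 12.5-fold (log2 fold change 3.65 ± 0.16, adjusted p = 2.47e-16) and 17.7-fold (log2 fold change 4.14 ± 0.16, adjusted p = 1.41e-17). TNF added 1.43-fold on top of IFN in si-control (log2 fold change 0.52 ± 0.14, adjusted p = 0.00658) and 1.41-fold in si-dnmt (log2 fold change 0.50 ± 0.14, adjusted p = 0.0106), and IFN added 7.45-fold and 5.72-fold on top of TNF (adjusted p = 2.89e-14 and 6.54e-13). Ordered by mean log2 CPM, the 8 groups ran from si-control, si-dnmt, si-control + TNF, si-dnmt + TNF, si-dnmt + IFN, si-control + IFN and si-dnmt + TNF + IFN to si-control + TNF + IFN. Only the steps from si-dnmt to si-control + TNF and from si-dnmt + TNF to si-dnmt + IFN exceeded the sum of the SDs of the neighbours.

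Between the siRNAs, Irf1 differed past the threshold in cells without cytokine. There it was 1.42-fold higher with si-dnmt (log2 fold change 0.51 ± 0.14, adjusted p = 0.0127), with 0.52 in replicates 1 and 2 and 0.51 in replicates 3 and 4, although the lowest si-dnmt library lay under the highest si-control library. This call was lost without si-control replicate 4 or si-dnmt replicate 1 (adjusted p up to 0.0618) and when the 2 groups were fitted on their own (adjusted p = 0.0826, within a range of 3.85e-05 to 0.0826 over 8 alternative settings). Under TNF the difference was not called (log2 fold change 0.12 ± 0.14, adjusted p = 0.607). Under IFN and under both cytokines the mean of si-dnmt was the lower one, with log2 fold changes of -0.24 ± 0.14 and -0.26 ± 0.14 that were not called (adjusted p = 0.247 and 0.223). Fitted with a replicate block, which gives each replicate number its own level, both were called lower. The adjusted p was 0.0317 under IFN and 0.0144 under both cytokines, within ranges of 0.0103 to 0.44 and 0.00452 to 0.35 over the same 8 settings, the block among them. Below, a block value is followed by its range over these settings.

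**Figure D2:**
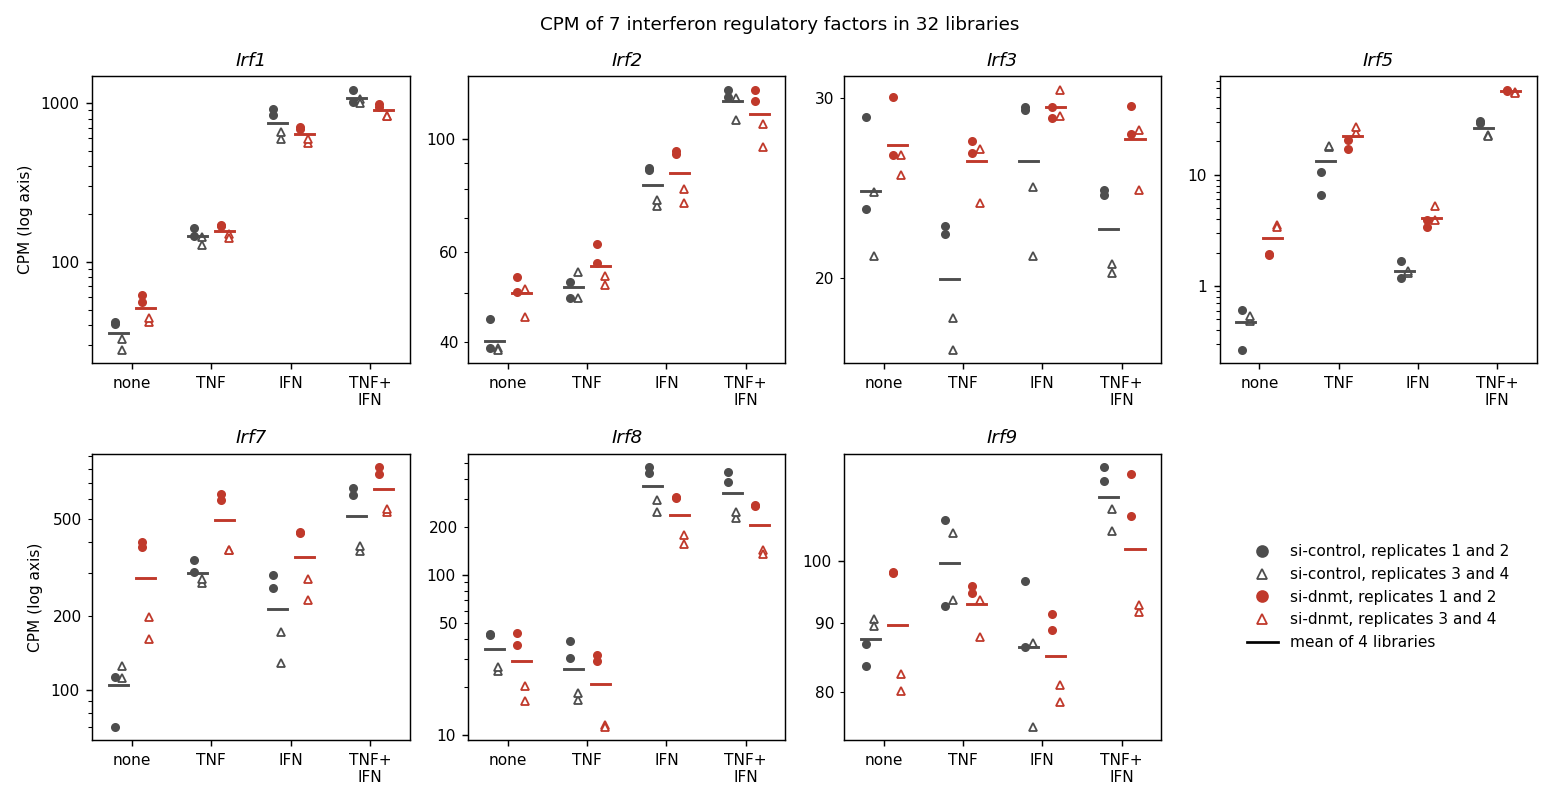
Each panel plots the CPM of 1 interferon regulatory factor on a log axis against cytokine state, with 1 symbol per library (dark grey si-control, red si-dnmt, circles replicates 1 and 2, triangles replicates 3 and 4) and a bar at the mean of 4 libraries. The Irf1 symbols of the 16 libraries with IFN all stand above the others, and the Irf8 triangles stand below the circles in all 8 groups.

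Irf2, the antagonist at the same sites, followed the same order of cytokine states with smaller steps. Its libraries without cytokine were at 38.8, 44.4, 38.9 and 38.6 CPM in si-control and at 53.6, 50.2, 50.8 and 44.8 CPM in si-dnmt, which did not overlap. With TNF it was at 48.9, 52.5, 54.9 and 48.7 CPM in si-control and at 62.4, 57.1, 53.8 and 51.8 CPM in si-dnmt, and the ranges overlapped. It was at 86.9, 87.6, 74.0 and 76.1 CPM in si-control and at 93.7, 94.8, 79.9 and 75.1 CPM in si-dnmt with IFN, and at 125, 121, 121 and 109 CPM in si-control and at 125, 119, 107 and 96.8 CPM in si-dnmt with both. No library with IFN overlapped one without. In si-control the rises were 1.27-fold with TNF (log2 fold change 0.35 ± 0.091, adjusted p = 0.00411), 2.02-fold with IFN (log2 fold change 1.01 ± 0.092, adjusted p = 1.28e-09) and 2.96-fold with both (log2 fold change 1.57 ± 0.093, adjusted p = 6.07e-14). In si-dnmt, Irf2 rose 1.72-fold with IFN (log2 fold change 0.78 ± 0.091, adjusted p = 2.2e-07) and 2.25-fold with both (log2 fold change 1.17 ± 0.092, adjusted p = 2.98e-11), and its change with TNF was not called (log2 fold change 0.18 ± 0.091, adjusted p = 0.182; adjusted p = 0.0415 with the block, range 0.0415 to 0.433). Adding TNF to IFN raised it 1.47-fold in si-control and 1.30-fold in si-dnmt (adjusted p = 3.07e-05 and 0.00219), and adding IFN to TNF 2.32-fold and 1.99-fold (adjusted p = 4.98e-11 and 3.62e-09). With si-dnmt, Irf2 was 1.24-fold higher without cytokine (log2 fold change 0.31 ± 0.091, adjusted p = 0.0164), a call lost without si-dnmt replicate 1 (adjusted p = 0.0533). It was not called under TNF, IFN or both (log2 fold changes 0.14 ± 0.091, 0.081 ± 0.09 and -0.088 ± 0.09, adjusted p = 0.326, 0.58 and 0.567).

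The ratio of Irf1 to Irf2 counts within a library does not depend on how libraries are scaled, although its size also depends on the lengths of the 2 genes. In si-control it was 1.05, 0.945, 0.837 and 0.720 without cytokine, 2.96, 3.10, 2.33 and 2.94 with TNF, 9.66, 10.5, 8.05 and 8.70 with IFN and 9.74, 8.43, 8.79 and 9.26 with both. No IFN library overlapped a library without IFN. In si-dnmt it was 1.16, 1.12, 0.819 and 0.987 without cytokine, 2.74, 2.92, 2.76 and 2.74 with TNF, 7.35, 7.51, 6.98 and 7.91 with IFN and 7.62, 8.34, 7.73 and 8.52 with both. The group means were 0.888 ± 0.141 and 1.02 ± 0.152 without cytokine, 2.83 ± 0.342 and 2.79 ± 0.0886 with TNF, 9.22 ± 1.07 and 7.44 ± 0.387 with IFN, and 9.05 ± 0.566 and 8.05 ± 0.444 with both (± SD, n = 4, si-control first). Under IFN the 4 si-dnmt ratios lay below the 4 si-control ratios, and in the other 3 states the ranges overlapped. The ratio with both cytokines overlapped the ratio with IFN alone in si-control, where adding TNF to IFN raised Irf1 1.43-fold and Irf2 1.47-fold.

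Irf8, known from myeloid and B cells, was present at rest and rose with IFN, while its change with TNF was not called. It was at 42.1, 42.9, 25.2 and 26.7 CPM in si-control and at 43.4, 36.7, 16.4 and 20.2 CPM in si-dnmt without cytokine. Under TNF it was at 30.2, 38.9, 16.5 and 18.2 CPM in si-control and at 31.4, 28.9, 11.5 and 11.2 CPM in si-dnmt. The ranges of the siRNAs overlapped in both states. With IFN the values were 432, 475, 248 and 294 CPM in si-control and 307, 304, 157 and 178 CPM in si-dnmt, ranges that overlapped. With both cytokines they were 440.4, 384, 226 and 247 CPM and 271, 275, 144 and 135 CPM. The 16 libraries with IFN stood clear of the 16 without. In all 8 groups replicates 3 and 4 lay below replicates 1 and 2, with means 0.376 times (si-dnmt + TNF) to 0.611 times (si-control) those of replicates 1 and 2. Irf8 rose 10.6-fold with IFN in si-control (log2 fold change 3.40 ± 0.41, adjusted p = 2.61e-07) and 8.12-fold in si-dnmt (log2 fold change 3.02 ± 0.40, adjusted p = 2.18e-06), with log2 fold changes of 3.44 in replicates 1 and 2 and 3.38 in replicates 3 and 4 for si-control. With both cytokines it rose 9.48-fold (log2 fold change 3.24 ± 0.40, adjusted p = 1.53e-07) and 7.08-fold (log2 fold change 2.82 ± 0.40, adjusted p = 1.38e-06). Adding IFN to TNF raised it 12.5-fold in si-control and 9.92-fold in si-dnmt (adjusted p = 1.03e-07 and 5.9e-07). The change when TNF was added to IFN was not called (log2 fold change -0.16 ± 0.37 in si-control and -0.20 ± 0.37 in si-dnmt). TNF alone gave log2 fold changes of -0.40 ± 0.38 in si-control and -0.49 ± 0.38 in si-dnmt, not called (adjusted p = 0.462 and 0.412). Both became calls with a replicate block (in si-control adjusted p = 0.00188 with the block, range 0.000247 to 0.558; in si-dnmt adjusted p = 0.00064 with the block, range 0.000147 to 0.527).

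With si-dnmt the mean of Irf8 was lower in each of the 4 cytokine states, and none of these differences was called. The log2 fold changes were -0.23 ± 0.38 without cytokine, -0.32 ± 0.38 with TNF, -0.62 ± 0.37 with IFN and -0.65 ± 0.37 with both (adjusted p = 0.729, 0.612, 0.258 and 0.245). Within the replicate sets they were -0.081 in replicates 1 and 2 and -0.51 in replicates 3 and 4 without cytokine, -0.19 in replicates 1 and 2 and -0.61 in replicates 3 and 4 with TNF, -0.58 in replicates 1 and 2 and -0.69 in replicates 3 and 4 with IFN, and -0.60 in replicates 1 and 2 and -0.77 in replicates 3 and 4 with both. A replicate block called Irf8 lower in all 4 states. Its adjusted p was 0.0403 without cytokine (range 0.000945 to 0.866), 0.012 under TNF (range 0.000477 to 0.693), 2.68e-05 under IFN (range 4.74e-06 to 0.365) and 1.27e-05 under both (range 1.58e-06 to 0.325). The summed level of the 16 leukocyte markers was 192 to 228 CPM in si-control and 140.5 to 188 CPM in si-dnmt without cytokine, and 144 to 188 and 133 to 148 CPM with IFN. Over all 32 libraries 13 of these markers never exceeded 10 counts, with Cd3e at 0 and Ptprc at 0 to 3. The myeloid genes Cd68 and Lyz2 were at 1013 to 4614 and 21 to 2500 counts, and Csf1r was at 5 to 34. The part of other cells in the Irf8 level was not tested.

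Irf4, the lymphoid member, was close to absent. It had 0, 0, 2 and 0 counts in si-control, 2, 1, 2 and 0 in si-control + IFN, 4, 1, 0 and 0 in si-control + TNF + IFN, 0, 2, 0 and 0 in si-dnmt, 0, 2, 7 and 0 in si-dnmt + IFN and 1, 0, 0 and 1 in si-dnmt + TNF + IFN. Both TNF groups held 0 counts in each library, where a count of 0 allows up to 3 counts, or 0.129 to 0.154 CPM in these libraries (counting error only). No fold is given, and differences in Irf4 were not detectable at this depth.

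Irf5, which acts in Toll-like receptor signalling, was the member that TNF moved most and the one that was higher with si-dnmt in all 4 states. Without cytokine it was at 0.610, 0.265, 0.483 and 0.538 CPM in si-control and at 1.96, 1.88, 3.52 and 3.37 CPM in si-dnmt, from 13, 5, 11 and 12 counts and 44, 44, 103 and 97 counts. With TNF it was at 6.62, 10.5, 17.7 and 18.1 CPM in si-control and at 17.3, 20.6, 23.9 and 27.2 CPM in si-dnmt, where 1 si-dnmt library lay within the si-control range. With IFN, where no ranges met, it was at 1.18, 1.66, 1.31 and 1.35 CPM in si-control and at 3.89, 3.36, 3.96 and 5.28 CPM in si-dnmt. With both it was at 29.3, 30.2, 22.7 and 22.5 CPM in si-control and at 58.6, 56.8, 55.4 and 54.4 CPM in si-dnmt. In the states without cytokine, with IFN and with both, all 4 si-dnmt libraries lay above all 4 si-control libraries. The difference was 5.59-fold without cytokine (log2 fold change 2.48 ± 0.32, adjusted p = 2.79e-06), with 2.09 in replicates 1 and 2 and 2.74 in replicates 3 and 4. It was 1.68-fold with TNF (log2 fold change 0.75 ± 0.23, adjusted p = 0.0204), 3.00-fold with IFN (log2 fold change 1.59 ± 0.28, adjusted p = 0.000146) and 2.15-fold with both (log2 fold change 1.10 ± 0.23, adjusted p = 0.000922). Under TNF the test no longer called Irf5 once si-control + TNF replicate 1, si-control + TNF replicate 2, si-dnmt + TNF replicate 3 or si-dnmt + TNF replicate 4 had been left out (adjusted p up to 0.0846) and when only the 2 groups were fitted (adjusted p = 0.142, range 3.08e-05 to 0.142). The log2 fold change under TNF ran from 0.51 to 1.15 over the 8 alternative settings, each replicate set alone among them.

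In si-control, Irf5 rose 27.3-fold with TNF (log2 fold change 4.77 ± 0.31, adjusted p = 3.63e-12), 2.85-fold with IFN (log2 fold change 1.51 ± 0.35, adjusted p = 0.00281) and 54.0-fold with both (log2 fold change 5.75 ± 0.31, adjusted p = 9.74e-15). In si-dnmt it rose 8.21-fold with TNF (log2 fold change 3.04 ± 0.25, adjusted p = 7.7e-10) and 20.8-fold with both (log2 fold change 4.38 ± 0.26, adjusted p = 1.24e-13), and the change with IFN was not called (log2 fold change 0.61 ± 0.25, adjusted p = 0.145). The summed level of the 6 fibroblast markers was also higher in the libraries with TNF, without overlap in si-control. It was 2.30 to 4.97 CPM in si-control, 15.8 to 56.6 with TNF, 2.18 to 4.20 with IFN and 23.8 to 35.8 with both. In si-dnmt it was 4.36 to 9.18, 8.74 to 31.7, 3.15 to 6.12 and 10.3 to 25.3 CPM. Of its 4 tested members TNF raised Dcn (decorin) and Pdgfra in si-control, by log2 5.03 ± 0.73 and 2.29 ± 0.72, with Dcn at 10 to 36 counts without cytokine and 256 to 1253 counts with TNF. The markers did not move as one. With TNF in si-control their log2 fold changes ran from -2.62 to 5.03, with 0 called lower. With both cytokines Dcn was called higher (4.77 ± 0.72) and Col1a1 lower (-3.67 ± 1.50, adjusted p = 0.0469). The part of these genes in the Irf5 result was not tested. Adding TNF to IFN raised Irf5 18.9-fold and 13.6-fold (adjusted p = 5e-12 in si-control and 1.38e-11 in si-dnmt). Adding IFN to TNF raised it 1.98-fold in si-control (log2 fold change 0.98 ± 0.23, adjusted p = 0.00227) and 2.53-fold in si-dnmt (log2 fold change 1.34 ± 0.23, adjusted p = 7.92e-05). The si-control value was 1.80 in replicates 1 and 2 and 0.33 in replicates 3 and 4, and its adjusted p was 0.0503 when only those 2 groups were fitted (range 1.78e-08 to 0.0503). In order of mean log2 CPM the groups ran from si-control, si-control + IFN, si-dnmt, si-dnmt + IFN, si-control + TNF, si-dnmt + TNF and si-control + TNF + IFN to si-dnmt + TNF + IFN. The steps from si-dnmt to si-dnmt + IFN, from si-control + TNF to si-dnmt + TNF, and from there to si-control + TNF + IFN did not exceed the SDs of the neighbours.

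Irf7, the inducible driver of interferon alpha genes, was higher with si-dnmt in cells without cytokine, and in si-control it rose with each cytokine. Without cytokine it was at 112, 70.1, 124 and 111 CPM in si-control and at 400.0, 383, 161 and 198 CPM in si-dnmt, with all si-dnmt libraries above all si-control libraries. With TNF it was at 302, 339, 272 and 283 CPM in si-control and at 597, 632, 371 and 373 CPM in si-dnmt, again without overlap. With IFN it was at 260.3, 294, 128 and 172 CPM in si-control and at 437, 442, 233 and 283 CPM in si-dnmt. Under both it was at 668, 627, 368 and 387 CPM in si-control and at 758, 814, 529.5 and 549.7 CPM in si-dnmt, and the ranges of the siRNAs overlapped in these 2 states. In 7 of 8 groups replicates 3 and 4 lay below replicates 1 and 2, the exception being si-control, where replicate 2 was the lowest. Irf7 was 2.73-fold higher with si-dnmt without cytokine (log2 fold change 1.45 ± 0.30, adjusted p = 0.000937), and the log2 fold change was 2.10 in replicates 1 and 2 and 0.61 in replicates 3 and 4. Under TNF (log2 fold change 0.72 ± 0.29, adjusted p = 0.0838), IFN (log2 fold change 0.71 ± 0.29, adjusted p = 0.0912) and both (log2 fold change 0.37 ± 0.29, adjusted p = 0.432) the difference was not called. A replicate block called the first 2 of these (for TNF adjusted p = 0.00705 with the block, range 2.49e-05 to 0.108; for IFN adjusted p = 0.00422 with the block, range 1.38e-05 to 0.119), and leaving out si-control + IFN replicate 2 brought the IFN difference to an adjusted p of 0.0475. The log2 fold change under TNF ran from 0.42 to 0.94 over the 8 alternative settings, each replicate set alone among them.

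In si-control, Irf7 rose 2.86-fold with TNF (log2 fold change 1.52 ± 0.30, adjusted p = 0.000292), 2.05-fold with IFN (log2 fold change 1.03 ± 0.30, adjusted p = 0.0167) and 4.90-fold with both (log2 fold change 2.29 ± 0.31, adjusted p = 5.21e-07). The IFN value was 1.62 in replicates 1 and 2 and 0.35 in replicates 3 and 4, and its call was lost without si-control replicate 2 or replicate 1 or 2 of si-control + IFN (adjusted p up to 0.0768). The value with both ran from 1.68 to 2.84 over the 8 alternative settings, each replicate set alone among them. Mean CPM went from 91.1 to 647 in replicates 1 and 2 and from 118 to 378 in replicates 3 and 4. In si-dnmt only the rise with both cytokines was called, at 2.32-fold (log2 fold change 1.21 ± 0.30, adjusted p = 0.00154). The values with TNF (log2 fold change 0.79 ± 0.29, adjusted p = 0.0558) and with IFN (log2 fold change 0.29 ± 0.29, adjusted p = 0.694) were not. The first gave adjusted p = 0.00113 with the block, range 2.69e-07 to 0.122, and leaving out si-dnmt replicate 1, si-dnmt replicate 2, si-dnmt + TNF replicate 3 or si-dnmt + TNF replicate 4 also made it a call (adjusted p down to 0.0317). TNF added to IFN raised Irf7 2.40-fold in si-control (log2 fold change 1.26 ± 0.30, adjusted p = 0.00183) and 1.90-fold in si-dnmt (log2 fold change 0.93 ± 0.29, adjusted p = 0.0213), the latter lost without si-dnmt + IFN replicate 3, si-dnmt + IFN replicate 4, si-dnmt + TNF + IFN replicate 1 or si-dnmt + TNF + IFN replicate 2 (adjusted p up to 0.0818). IFN added to TNF gave 0.78 ± 0.29 in si-control, not called (adjusted p = 0.0597; adjusted p = 0.00379 with the block, range 3.83e-06 to 0.0661). It was called after leaving out replicate 3 or 4 of si-control + TNF + IFN (adjusted p down to 0.0391). In si-dnmt it gave 0.43 ± 0.29 (adjusted p = 0.367).

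Irf3, the constitutive partner of Irf7, kept within a narrow range. Its values ran from 17.0 to 30.6 CPM over the 32 libraries, and no neighbouring groups in its order stood apart. With TNF it was at 22.5, 22.1, 18.3 and 17.0 CPM in si-control and at 26.5, 27.2, 26.8 and 23.7 CPM in si-dnmt, without overlap, and without cytokine at 28.8, 23.4, 24.3 and 21.0 CPM in si-control and at 26.4, 30.1, 25.2 and 26.4 CPM in si-dnmt, with overlap. Under TNF it was 1.31-fold higher with si-dnmt (log2 fold change 0.38 ± 0.11, adjusted p = 0.0135). In the other states it was not called, with log2 fold changes of 0.15 ± 0.11 without cytokine, 0.17 ± 0.11 under IFN and 0.29 ± 0.11 under both (the last with adjusted p = 0.0659; adjusted p = 0.0119 with the block, range 0.0119 to 0.221). The TNF call was lost without si-control + TNF replicate 4 (adjusted p = 0.0569), without the low-count filter (adjusted p = 0.0523) and with only the 2 groups fitted (adjusted p = 0.0629, range over the settings 0.00104 to 0.0807). In si-control Irf3 fell with TNF (1.22-fold lower, log2 fold change -0.29 ± 0.11, adjusted p = 0.0482), a call that was lost without si-control replicate 1, si-control replicate 2, si-control replicate 3, si-control + TNF replicate 3 or si-control + TNF replicate 4 (adjusted p up to 0.213). The fall was also not called with RLE size factors (adjusted p = 0.0565), without the filter (adjusted p = 0.189) or with only the 2 groups fitted (adjusted p = 0.181, range 0.00898 to 0.189). For TNF + IFN against IFN in si-control the value was -0.22 ± 0.11 (adjusted p = 0.137), a call after leaving out si-control + IFN replicate 3 (adjusted p = 0.0356).

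Irf9, of the ISGF3 complex, kept to 75.3 to 118 CPM. It was at 86.8, 83.5, 90.5 and 89.5 CPM in si-control and at 98.0, 98.2, 80.1 and 82.4 CPM in si-dnmt without cytokine, with overlap. With both cytokines it was at 118, 115, 109 and 105 CPM in si-control and at 108, 116, 91.7 and 92.8 CPM in si-dnmt, and these ranges overlapped too. In si-control it rose 1.28-fold with both (log2 fold change 0.35 ± 0.087, adjusted p = 0.00155) and 1.29-fold when TNF was added to IFN (log2 fold change 0.37 ± 0.087, adjusted p = 0.00172). In si-dnmt the second of these was 1.20-fold (log2 fold change 0.27 ± 0.087, adjusted p = 0.0253), a call lost without si-dnmt + IFN replicate 3, si-dnmt + IFN replicate 4, si-dnmt + TNF + IFN replicate 1 or si-dnmt + TNF + IFN replicate 2 (adjusted p up to 0.127), without the low-count filter (adjusted p = 0.128) and with only the 2 groups fitted (adjusted p = 0.0941, range 0.0038 to 0.128). TNF alone in si-control gave 0.19 ± 0.087 (adjusted p = 0.108; adjusted p = 0.0371 with the block, range 0.0324 to 0.243). TNF + IFN against none in si-dnmt gave 0.19 ± 0.087 (adjusted p = 0.0862; adjusted p = 0.026 with the block, range 0.026 to 0.287), and was called after leaving out si-dnmt replicate 2, si-dnmt + TNF + IFN replicate 3 or si-dnmt + TNF + IFN replicate 4 (adjusted p down to 0.0431). IFN alone gave -0.021 ± 0.087 in si-control and -0.078 ± 0.087 in si-dnmt, and si-dnmt against si-control gave 0.033 ± 0.087, -0.10 ± 0.087, -0.023 ± 0.087 and -0.13 ± 0.087 in the 4 states, none of them called.

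Counted over the family, the response of si-control cells to cytokine was mostly upward. TNF raised 4 of the 7 tested members (Irf1, Irf2, Irf5 and Irf7) and lowered 1 (Irf3), beside 30.8% of all genes called, 16.1% higher and 14.6% lower. IFN raised all 5 members it called (Irf1, Irf2, Irf5, Irf7 and Irf8), beside 14.5% called, 8.56% higher and 5.92% lower. Together the cytokines raised 6, all but Irf3, beside 45.2% called, 23.5% higher and 21.6% lower. The median log2 fold change of the 7 members was 0.35 with TNF, 1.03 with IFN and 2.29 with both, against -0.0092, -0.0082 and -0.0058 over all genes. Adding IFN to TNF raised 4 members (Irf1, Irf2, Irf5 and Irf8), where 21% of all genes were called, and adding TNF to IFN raised 5 (Irf1, Irf2, Irf5, Irf7 and Irf9), where 29.1% were. In si-dnmt, TNF raised 2 members (Irf1 and Irf5) beside 21% of all genes called, IFN 3 (Irf1, Irf2 and Irf8) beside 9.01%, and both 5 (Irf1, Irf2, Irf5, Irf7 and Irf8) beside 40.2%. For TNF the replicate block gave 5 calls in si-dnmt, beside 34.3% of all genes, and 7 in si-control, beside 43.4%. Adding IFN to TNF raised 4 (Irf1, Irf2, Irf5 and Irf8) beside 17.5%, and adding TNF to IFN raised 5 (Irf1, Irf2, Irf5, Irf7 and Irf9) beside 23.6%. Comparisons within 1 siRNA share their control libraries.

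**Figure D3:**
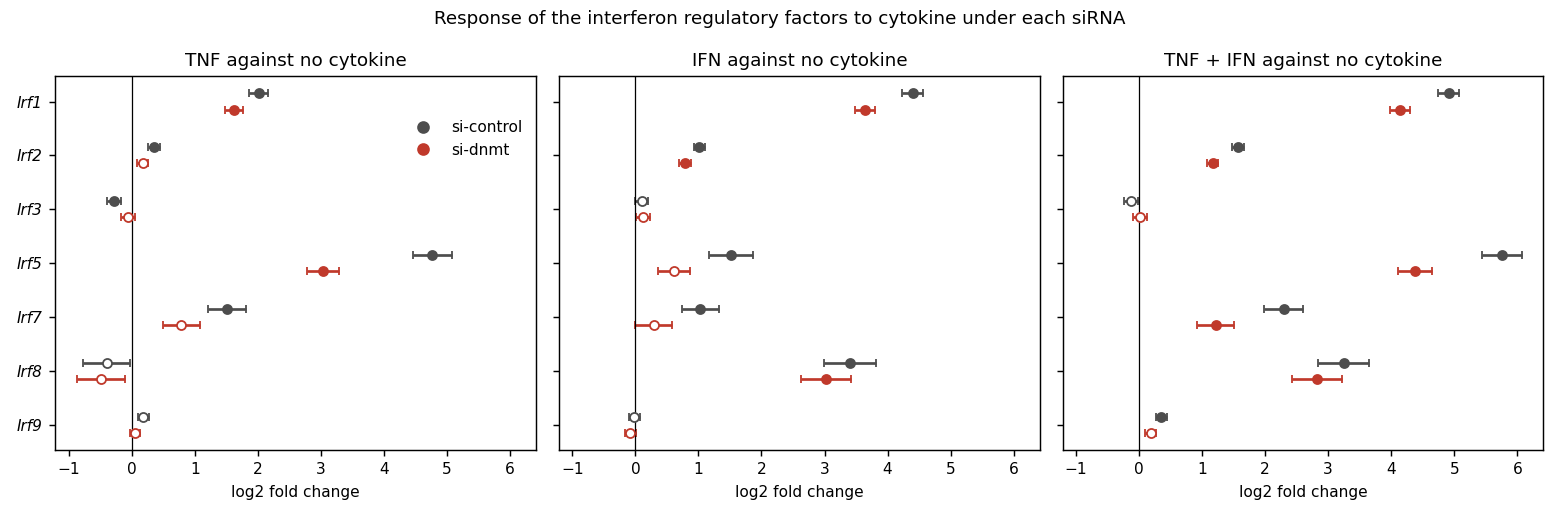
Points give the log2 fold change of each tested member with TNF, IFN or both against no cytokine, grey in si-control and red in si-dnmt, with bars for the SE. Filled points passed an adjusted p of 0.05; Irf5 moved furthest with TNF, and Irf1 furthest with IFN.

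With si-dnmt against si-control, every called member was higher. Without cytokine these were 4 of the 7 tested (Irf1, Irf2, Irf5 and Irf7), beside 18.5% of all genes called, 9.58% higher and 8.88% lower. Under TNF 2 were higher (Irf3 and Irf5), beside 20%, of which 10.4% higher and 9.59% lower. Under IFN 1 was higher (Irf5), beside 20.3%, 10.8% higher and 9.54% lower, and under both cytokines again Irf5 alone, beside 17.7%, 8.97% higher and 8.72% lower. Under IFN and under both, 1 of 7 is a smaller share than that of all genes called. The replicate block called 5 members without cytokine and 4 in each of the other states, Irf8 among them as lower in all 4. Over all genes the block called 32.4% without cytokine, 33.4% under TNF, 34.5% under IFN and 30.8% under both. The median log2 fold change over the members was 0.31 without cytokine, 0.14 with TNF, 0.081 with IFN and -0.088 with both, where that of all genes lay between -0.0067 and 0.0038.

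**Figure D4:**
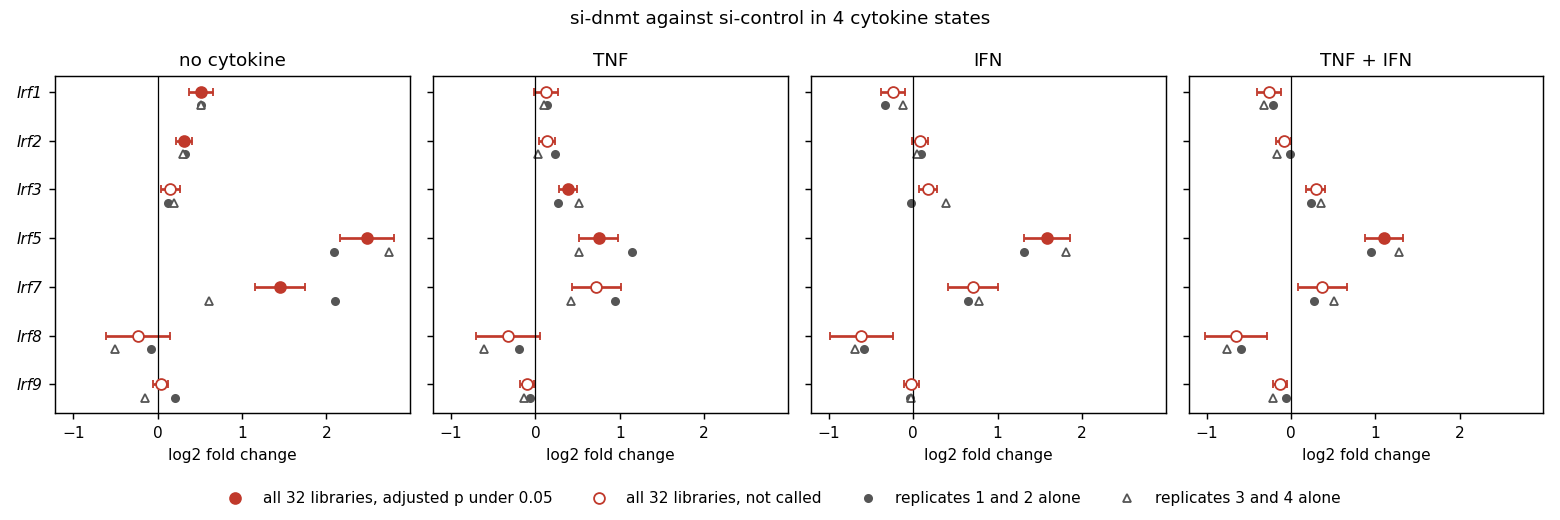
Red points give the log2 fold change of si-dnmt against si-control for each tested member in 4 cytokine states, with bars for the SE and filled where the adjusted p was under 0.05. Small grey symbols give the same value within replicates 1 and 2 (circles) and within replicates 3 and 4 (triangles); the Irf7 symbols without cytokine stand far apart, and those of Irf8 lie left of 0 in all 4 panels.

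Whether the siRNA changed a cytokine response was tested by interaction terms, and none of the 7 members was called by edgeR in any of the 3. The background was 0.0328% of genes for TNF, 0.0459% for IFN and 0.531% for both. At an unadjusted p under 0.05 there were 1, 2 and 4 members, beside 6.63%, 2.65% and 9.04% of all genes. DESeq2 called 1 (Irf5), 0 and 2 (Irf1 and Irf5), beside 0.347%, 0.21% and 1.34%. The replicate block called 1 (Irf5), 1 (Irf1) and 3 (Irf1, Irf2 and Irf5), beside 0.892%, 0.387% and 4.18%. For Irf5 the interaction was -1.73 ± 0.40 with TNF (adjusted p = 0.159) and -1.38 ± 0.40 with both (adjusted p = 0.131). The first was called with a replicate block (adjusted p = 0.0367 with the block, range 2.29e-05 to 0.447) and without si-control + TNF replicate 1 (adjusted p = 0.0122), and so was the second with the block (adjusted p = 0.0454 with the block, range 0.00169 to 0.16). DESeq2 gave Irf5 adjusted p = 0.0149 and 0.0486 in these terms. The Irf5 interaction with TNF ran from -2.23 to -0.94 over the 8 alternative settings, each replicate set alone among them. For Irf1 the interaction was -0.75 ± 0.20 with IFN (adjusted p = 0.379; adjusted p = 0.00101 with the block, range 0.000576 to 1) and -0.77 ± 0.20 with both (adjusted p = 0.0784; adjusted p = 0.000223 with the block, range 0.000117 to 0.148). For Irf2 with both it was -0.40 ± 0.13 (adjusted p = 0.201; adjusted p = 0.0111 with the block, range 0.0111 to 0.429). For Irf7 the interaction with both was -1.08 ± 0.42 (adjusted p = 0.35), with -1.83 in replicates 1 and 2 and -0.094 in replicates 3 and 4. Negative values mean a smaller rise in si-dnmt. Without cytokine Irf5, Irf7, Irf1 and Irf2 were each called higher with si-dnmt. With both cytokines the log2 fold change of si-dnmt against si-control was 1.10 for Irf5, which was called. It was 0.37 for Irf7, -0.26 for Irf1 and -0.088 for Irf2, not called. The part of the starting level was not tested.

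TNF and IFN together raised Irf1 less than the product of their separate folds. The TNF-by-IFN interaction of Irf1 was -1.50 ± 0.20 in si-control (adjusted p = 4.21e-05) and -1.13 ± 0.20 in si-dnmt (adjusted p = 0.00366), and Irf1 was the one member called in each, beside 1.06% and 0.354% of all genes. It was -1.56 in replicates 1 and 2 and -1.45 in replicates 3 and 4 in si-control, and -1.05 in replicates 1 and 2 and -1.24 in replicates 3 and 4 in si-dnmt. For Irf5, which each cytokine also raised in si-control, it was -0.53 ± 0.42 in si-control and 0.72 ± 0.34 in si-dnmt, and neither was called (adjusted p = 0.796 and 0.776). The term that asks whether this interaction differed between the siRNAs called 0 of the 7 members, beside 0% of all genes, with 1 member at an unadjusted p under 0.05 (Irf5, log2 1.25 ± 0.54), where 1.87% of all genes were, and 0 called by DESeq2, which called 0.0131% of all genes. For Irf1 it was 0.37 ± 0.28 (adjusted p = 1).

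The genes around the family were counted from lists, and no list was tested as a set. Over all genes, the shares called higher and lower with si-dnmt were 9.58% and 8.88% without cytokine and 10.4% and 9.59% under TNF. They were 10.8% and 9.54% under IFN, and 8.97% and 8.72% under both. In si-control they were 16.1% and 14.6% with TNF, 8.56% and 5.92% with IFN, and 23.5% and 21.6% with both. These shares apply to every list below. Of the sensors, adaptors and kinases that act upstream of Irf3, Irf5 and Irf7, 16 of 17 were tested. With si-dnmt 7 were higher and 1 lower without cytokine, 4 and 0 under TNF, 6 and 1 under IFN, and 4 and 1 under both. The median log2 fold changes were 0.46, 0.28, 0.41 and 0.25. Ikbke, a kinase of Irf3 and Irf7, was higher in each state, by 1.09 ± 0.077 without cytokine (adjusted p = 5.15e-10) and 1.00 ± 0.076 with both (adjusted p = 3.11e-09). So was the adaptor Traf3, by 0.69 ± 0.12 and 0.38 ± 0.12 on the log2 scale. The RNA sensors Ifih1 and Tlr3 were higher without cytokine, by 0.97 ± 0.21 and 0.93 ± 0.17. In si-control the list had 7 higher and 2 lower with TNF, 6 and 0 with IFN, and 11 and 1 with both, including Ikbke at 1.36 ± 0.077 with TNF and the cytosolic DNA adaptor Tmem173 at 1.45 ± 0.30 with IFN.

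All 13 genes of the list of receptors, JAKs and STATs were tested. With IFN in si-control 8 were higher and 1 lower, among them the feedback inhibitor Socs1 (4.91 ± 0.30) and the kinase Jak2 (1.73 ± 0.12). With TNF 7 were higher and 1 lower, led by the IFNγ receptor chain Ifngr1 (1.68 ± 0.11), and with both 8 and 1. With si-dnmt 6 were higher and 0 lower without cytokine, among them Stat2 (0.72 ± 0.15), the ISGF3 subunit, and Jak2 (0.64 ± 0.11). Under TNF the counts were 2 and 1, under IFN 1 and 0, and under both 1 and 0. Of all genes 20%, 20.3% and 17.7% were called in these 3 contrasts. The kinase Tyk2 was higher under TNF, IFN and both, by 0.59 ± 0.11, 0.40 ± 0.11 and 0.80 ± 0.11.

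Of 8 partner factors with which Irf4 and Irf8 act in blood cells, 4 were tested. Batf2 was at 2 to 7 counts in si-control, 31 to 41 with TNF and 1091 to 2155 with IFN. In si-dnmt it was at 21 to 29, 112 to 216 and 1443 to 2848 counts, and the siRNAs differed without cytokine (adjusted p = 0.000681) as well as under TNF (adjusted p = 2.83e-07), si-dnmt being higher. In si-control Batf3 rose with TNF (0.73 ± 0.27, adjusted p = 0.0442), with IFN (0.83 ± 0.28) and with both (2.18 ± 0.27). Spib was at 0 counts in the 4 si-control libraries and at 164 to 218 with TNF, 0 to 2 with IFN and 37 to 108 with both, and in si-dnmt at 0 to 3, 71 to 213, 0 to 3 and 37 to 54. Over all genes, 18.5% were called with si-dnmt without cytokine, 20% under TNF, 20.3% under IFN and 17.7% under both. With si-dnmt the list had 1 member higher and 1 lower without cytokine, and 1 and 1 under TNF. It had 0 and 0 under IFN, and 0 and 1 under both. The lower one was Tcf3, an E protein that pairs with other helix-loop-helix factors, at -0.34 ± 0.11, -0.41 ± 0.11 and -0.37 ± 0.12 in the 3 states in which it was called. In si-control Tcf3 was also lower with both cytokines (-0.56 ± 0.12).

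In si-control most genes of the target lists were called higher with the cytokines. These lists were chosen with earlier results of these data known, so the counts describe the lists and do not test IRF activity. Of 19 genes known to carry ISRE-type elements, 18 were higher with TNF, 15 with IFN and 19 with both, with medians of 1.69, 1.29 and 2.71 on the log2 scale. Of 22 genes of the Irf1 type, 21, 22 and 22 were higher, with medians of 2.12, 4.29 and 4.38. No gene of these lists was called lower by a cytokine. With si-dnmt, 11 of the 19 ISRE-type genes were higher without cytokine, 3 under TNF, 4 under IFN and 2 under both, every called one higher (medians 0.98, 0.30, 0.28 and 0.23). Of all genes 9.58%, 10.4%, 10.8% and 8.97% were called higher in the same order. The antiviral gene Oas2 was higher in all 4 states, by 2.75 ± 0.32, 1.10 ± 0.28, 1.55 ± 0.29 and 0.90 ± 0.28. Of the 22 genes of the Irf1 type, 13 were higher and 0 lower without cytokine, 7 and 0 under TNF, 4 and 2 under IFN, and 2 and 1 under both (medians 0.91, 0.28, -0.15 and 0.029). Casp1, the inflammatory caspase, was at 1 to 3 counts in si-control and 30 to 41 in si-dnmt, and at 17 to 38 and 198 to 237 with both cytokines. The chemokine Cxcl9 was at 1 to 3 and 14 to 55 counts without cytokine. Psmb9, an immunoproteasome subunit, was higher by 1.50 ± 0.20 without cytokine and the GTPase gene Gbp2 was lower with both (-0.55 ± 0.19, adjusted p = 0.0469). Lists and factors were measured in the same libraries.

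Interferon genes, of which Ifnb1 and the Ifna genes are known targets of Irf3 and Irf7, were near the limit of detection. Of 21 genes listed, which also include others such as Ifng, 9 were at 0 counts in all 32 libraries and 20 never exceeded 10 counts. Ifnb1 was at 0 to 4 counts in si-control and 0 to 4 in si-dnmt, 1 to 8 and 9 to 11 with TNF, 0 to 11 and 1 to 8 with IFN, and 10 to 86 and 29 to 49 with both. It was called higher with both cytokines in si-control (4.94 ± 0.80, adjusted p = 1e-05) and in none of the 4 siRNA comparisons.

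Genes with the pattern most like each member were found by Pearson's r of log2 CPM over the 32 libraries, which share groups, replicate sets and depth, so r is a description and carries no test. For Irf1 they were Gbp4 (0.992), Gbp5 (0.992) and Psme1 (0.988), for Irf2 Cxcl9 (0.980), Snx10 (0.975) and Stxbp3 (0.968) and for Irf8 Nod1 (0.971), C4b (0.968) and Bst1 (0.966). For Irf5 they were Tnfaip3 (0.981), Adtrp (0.972) and Vcam1 (0.969), and for Irf7 Apol9b (0.984), Apol9a (0.970) and Ifih1 (0.960). For the flat members Irf3 and Irf9 they were Qpctl (0.900), Dpm2 (0.874) and Dgcr2 (0.861), and Ciart (0.856), Strn4 (0.833) and Fam214a (0.830). Gbp4 and Gbp5 are guanylate-binding protein genes, Tnfaip3 is a feedback inhibitor of NF-kB, Vcam1 is an adhesion molecule and Ifih1 is an RNA sensor.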

How the data were processed

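RNA was sequenced from 32 cultures of the Veravec line. The submitters' processing notes name cutadapt 4.9 for trimming, FastQC 0.12.1 and MultiQC 1.27.1 for quality control, featureCounts and DESeq2. For the aligner, genome build, gene annotation and strand setting, no name is given in the sources used here. The authors deposited whole-number read counts per gene, not normalized, as 1 table per library (54532 gene IDs) and 1 merged table by symbol (54429), which held the same sums in every cell. The libraries came to 17362546 to 33500030 counts, which limits precision most for Irf4 and for Irf5 in the groups without TNF. Floors and intervals cover counting error only.

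Counts per library were filtered with filterByExpr at a minimum count of 10, scaled with TMM factors and fitted in edgeR 4.0.16 (R 4.3.3) with the 8 group means over all 32 libraries. Contrasts were tested with the two-sided quasi-likelihood F test and adjusted by Benjamini-Hochberg over the 15254 genes left, with calls made at an adjusted p under 0.05. The scripts were tested on simulated data. CPM were computed with TMM-scaled totals, and log2 CPM for correlations and group order used a prior count of 2. Neighbouring groups counted as apart when their mean log2 CPM differed by more than the sum of their SDs. Levels per kilobase used the exon lengths of GENCODE M21, which all 8 members matched by gene ID and which may differ from the annotation used for counting. Promoters came from RefSeq on GRCm38.p6, matched by symbol for all 8 members. The text names the members, Dnmt1, cell markers, for each tested member the 3 genes of most like pattern, and for each list up to 4 called genes with the largest absolute log2 fold change in a contrast, except where a gene is named for its role only. A gene of the list of receptors, JAKs and STATs is not reported here by name. The members and gene lists were chosen with earlier results of these data known.

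Alternatives were DESeq2 1.42.0, RLE size factors, no filter on low counts, the merged table, only the groups of a contrast, library totals without scaling factors for CPM, a replicate block, each replicate set alone and leaving out each library. The labels number the replicates 1 to 4 without saying what a number shares. Over 112 pairs of libraries with the same number, deviations from the group means correlated with r of 0.297 to 0.617 (median 0.415), and 0 pairs were at or under 0.1. Libraries of the same set with the other number correlated as highly (median 0.409), those of the other set negatively (median -0.410), and 24 of 32 libraries were closest to their own number. These correlations follow the replicate sets and do not by themselves pair libraries by number within a set. The fit with the replicate number as a block was therefore kept as an alternative, and no term for the 2 replicate sets was fitted. All 48 same-group pairs differed beyond sampling noise, so none was taken for a library deposited again. P-values measure the spread between cultures that the labels call biological replicates. In the main fit, which had no replicate block, this spread includes the difference between the replicate sets. A difference that the main fit did not call is therefore not shown to be absent. The block called Irf8 lower with si-dnmt in all 4 states, where the main fit made no call. Replicates 3 and 4 lay below replicates 1 and 2 in 8 of 8 groups for Irf8, and in 7 for Irf1 and Irf7.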

Additional observations from a re-analysis of the deposited data

Results flagged for a closer look

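In each group of 4 libraries, the gap between an extreme value and its nearest neighbour was set against the whole range of the group. Of 64 groups (8 genes in 8 groups), those of Irf4 in both TNF groups held only 0 counts and gave no gap to compare. Among the rest, 3 passed a level that chance gives in about 1 in 20, so a few such flags are expected by chance. For counts as low as those of Irf4 that level does not hold. Irf2 in si-control replicate 2 was at 44.4 CPM, above the other 3 libraries of its group at 38.6 to 38.9 CPM, and still below the lowest si-dnmt library. Irf4 was at 0.0879 CPM in si-control replicate 3 and at 0.0855 CPM in si-dnmt replicate 2, which is 2 counts in each, where the other libraries of both groups had 0 counts.

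Of 42 interaction tests on the members, 2 passed an adjusted p of 0.05 in edgeR. The effect of TNF on Irf1 was smaller in the presence of IFN than in its absence, by -1.50 on the log2 scale in si-control and by -1.13 in si-dnmt.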

How the results depend on the processing

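The number of members called changed most with the replicate sets. Under the replicate block, 4 members were called with si-dnmt under each of TNF, IFN and both, and 5 with TNF in si-dnmt, where it called 33.4%, 34.5%, 30.8% and 34.3% of all genes. The block also called 1, 1 and 3 members in the siRNA interactions with TNF, IFN and both, beside 0.892%, 0.387% and 4.18% of all genes. It ended no call, the members it added are named in the report, and it changed no other call. In replicates 1 and 2 alone, 4 members were called with si-dnmt under IFN, 2 under both, 4 with TNF in si-dnmt, and 1, 2 and 2 in the 3 siRNA interactions, with 2 in the TNF-by-IFN interaction of si-control. The shares of all genes called there were 25.5%, 23.9%, 35.4%, 1.98%, 1.80%, 4.95% and 10.8%, in the same order. In replicates 3 and 4 alone, the counts were 4 under TNF, 4 under IFN, 6 under both, 4 with TNF in si-dnmt, and 1, 1 and 3 in the interactions, beside 36.0%, 38.2%, 35.9%, 24.9%, 7.97%, 0.990% and 11.8% of all genes. DESeq2 called 2 under both cytokines, and 1 and 2 in the interactions with TNF and with both, beside 19.8%, 0.347% and 1.34%. Under TNF 1 member was called without the low-count filter, beside 6.48% of 33542 genes, and 1 with only the groups of the contrast, beside 14.8%. Leaving out 1 library gave 2 to 4 members without cytokine, 1 to 2 under TNF and 1 to 2 under IFN. It gave 3 to 5 for TNF added to IFN in si-dnmt and 0 to 1 for the siRNA interaction with TNF. The share of all genes called was not counted in the fits without 1 library. Whether these changes were particular to the members was therefore not tested. The causes were not tested.

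No called value changed sign under any alternative. Values that were not called did so 17 times. In replicates 1 and 2 alone, Irf3 was at -0.027 with si-dnmt under IFN, -0.14 in the siRNA-by-IFN interaction, -0.064 and 0.045 in the TNF-by-IFN interactions of si-control and si-dnmt, and 0.11 in the three-way term. Irf9 was at 0.13 with IFN in si-control and -0.035 with TNF in si-dnmt, Irf5 at 0.12 in the TNF-by-IFN interaction of si-control, and Irf2 at -0.027 in the three-way term. In replicates 3 and 4 alone, Irf9 was at -0.15 with si-dnmt without cytokine, 0.017 and 0.12 in the siRNA interactions with TNF and IFN, and -0.21 in the three-way term. Irf7 was at 0.17 in the siRNA-by-IFN interaction, 0.096 in the TNF-by-IFN interaction of si-control and -0.080 in the three-way term. With only the groups of the contrast, Irf3 was at -0.0099 with both cytokines in si-dnmt.

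Leaving out 1 library turned the sign of 14 small differences. Their ranges were -0.018 to 0.074 for Irf3 with both cytokines in si-dnmt, -0.084 to 0.0029 for Irf3 with TNF in si-dnmt, -0.025 to 0.15 and -0.11 to 0.00058 for Irf3 in the TNF-by-IFN interactions of si-control and si-dnmt, and -0.066 to 0.089 for Irf3 in siRNA by IFN. For Irf9 they were -0.080 to 0.039 with IFN in si-control, -0.084 to 0.036 with si-dnmt under IFN, -0.013 to 0.084 without cytokine, -0.12 to 0.0024 in siRNA by IFN and -0.041 to 0.087 in the three-way term. For Irf8 they were -0.36 to 0.17 in siRNA by TNF and -0.21 to 0.32 in the three-way term, for Irf7 -0.068 to 0.33 in the TNF-by-IFN interaction of si-dnmt, and for Irf2 -0.053 to 0.070 in the three-way term.

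With library totals alone, 7 of the mean CPM moved by more than 1 SD. The ratios of Irf1 to Irf2 and the TNF-by-IFN interaction of Irf1 kept their direction and side of the threshold throughout.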
